A study of Mus musculus with 14 samples.

Results

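The genes described here are 55 regulators of skeletal muscle differentiation and genes of the muscle membrane and neuromuscular junction, taken as a fixed list. They were examined for binding of Sin3A and Sin3B, related scaffold proteins of histone deacetylase complexes, in C2C12 cells, a mouse muscle line with a C3H background. Myoblasts were grown in medium with 10% fetal bovine serum. Myotubes formed once confluent cultures had been moved to 2% horse serum, and dilute trypsin was used to remove cells that had not differentiated. Chromatin immunoprecipitation and sequencing gave 11 samples, namely 2 of Sin3A in myoblasts, 2 of Sin3A in myotubes, 2 of Sin3B in myoblasts and 5 of Sin3B in myotubes, and 3 input samples were not analysed here. Per the labels, 1 antibody catalogue number served for both proteins, with 2 lots among the Sin3A myoblast samples, 1 of which also served for Sin3A in myotubes, and a different lot for Sin3B. The labelled cell types could not be checked against expressed markers, since peak lists hold no expression.

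The files within each group held the same intervals, without height or score, and count as 1 list (n = 1 per group). For Sin3A the myoblast list held 691 peaks and the myotube list 759, and for Sin3B they held 2387 and 3769. With 1 list a group there is no spread between replicates and no test of a difference between conditions, and the values describe the 4 lists. Read depth and peak threshold are unknown, so a gene without a listed peak is not shown to be unbound, and more peaks in a list cannot be told apart from deeper sequencing.

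A gene was counted as bound in a list when the centre of a peak lay within 5 kb of a start of the gene. The build of the peaks is not stated, and their positions did not match those of the GRCm38.p6 gene table. Each 10 Mb block of peaks was therefore moved by the single distance that brought most of its peak centres to within 1 kb of a gene start, and blocks in which at least 50% of centres came that close were kept. Of 7606 peaks, 9.78% had a start within 1 kb before this step. The 258 kept blocks, of 267, held 7342 peaks, of which 81.2% then did. A rise was built into the rule, since each shift was chosen for this share, so it does not test the placement. In 29 kept blocks a shift more than 3 kb away did equally well, and 57 kept blocks held fewer than 10 peaks. Of the 55 genes, 53 fell into kept blocks and 2, Mef2c and Runx1, did not. Strand and start were known for 37 of the 55, and for the other 18 both ends of the gene were counted as starts. Distances to a start carry an error, because the median peak of a kept block stayed off the nearest start by 176.5 bp in the median block and by up to 901 bp. Positions are those of the peak files, counted from 1, and distances to peaks outside the window were taken in these positions with the shift of the gene's own block.

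Skeletal muscle differentiation is driven by myogenic bHLH factors (Myod1, Myf5, Myog and Myf6), which pair with E proteins on E-box sequences and work with MEF2 factors. Id proteins lack a DNA-binding region, capture E proteins and so hold the myogenic factors inactive in growing cells. Myotubes then build acetylcholine receptor clusters beneath the nerve, organised by agrin, LRP4, MuSK, DOK7 and rapsyn, and tie their cytoskeleton to laminin through dystrophin, dystroglycan and the sarcoglycans. Sin3 complexes remove acetyl groups from histones and are known mostly as corepressors.

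Sin3B accounted for nearly all peaks at these genes, and its lists are also the longer ones. Over all placed genes Sin3B was likewise listed more often, at 12.2% in myoblasts and 18.6% in myotubes, against 2.22% and 4.13% for Sin3A. Id1, Id2, Id3, Mef2a, Six4 and Cebpb had a Sin3B peak in myoblasts only. Myog, Mef2d, Tead4, Rbm24, Klf5, Chrna1, Chrnd, Lrp4, Dok7, Dag1 and Itga7 had one in myotubes only, and Tcf3 and Hes1 had one at both stages. Sin3A was listed at 2 genes, Chrna1 and Itga7, in myotubes. In all, 19 of the 53 placed genes had a peak in at least 1 list, against 22.9% of 20678 placed protein-coding genes, and 34 had none.

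**Figure D1:**
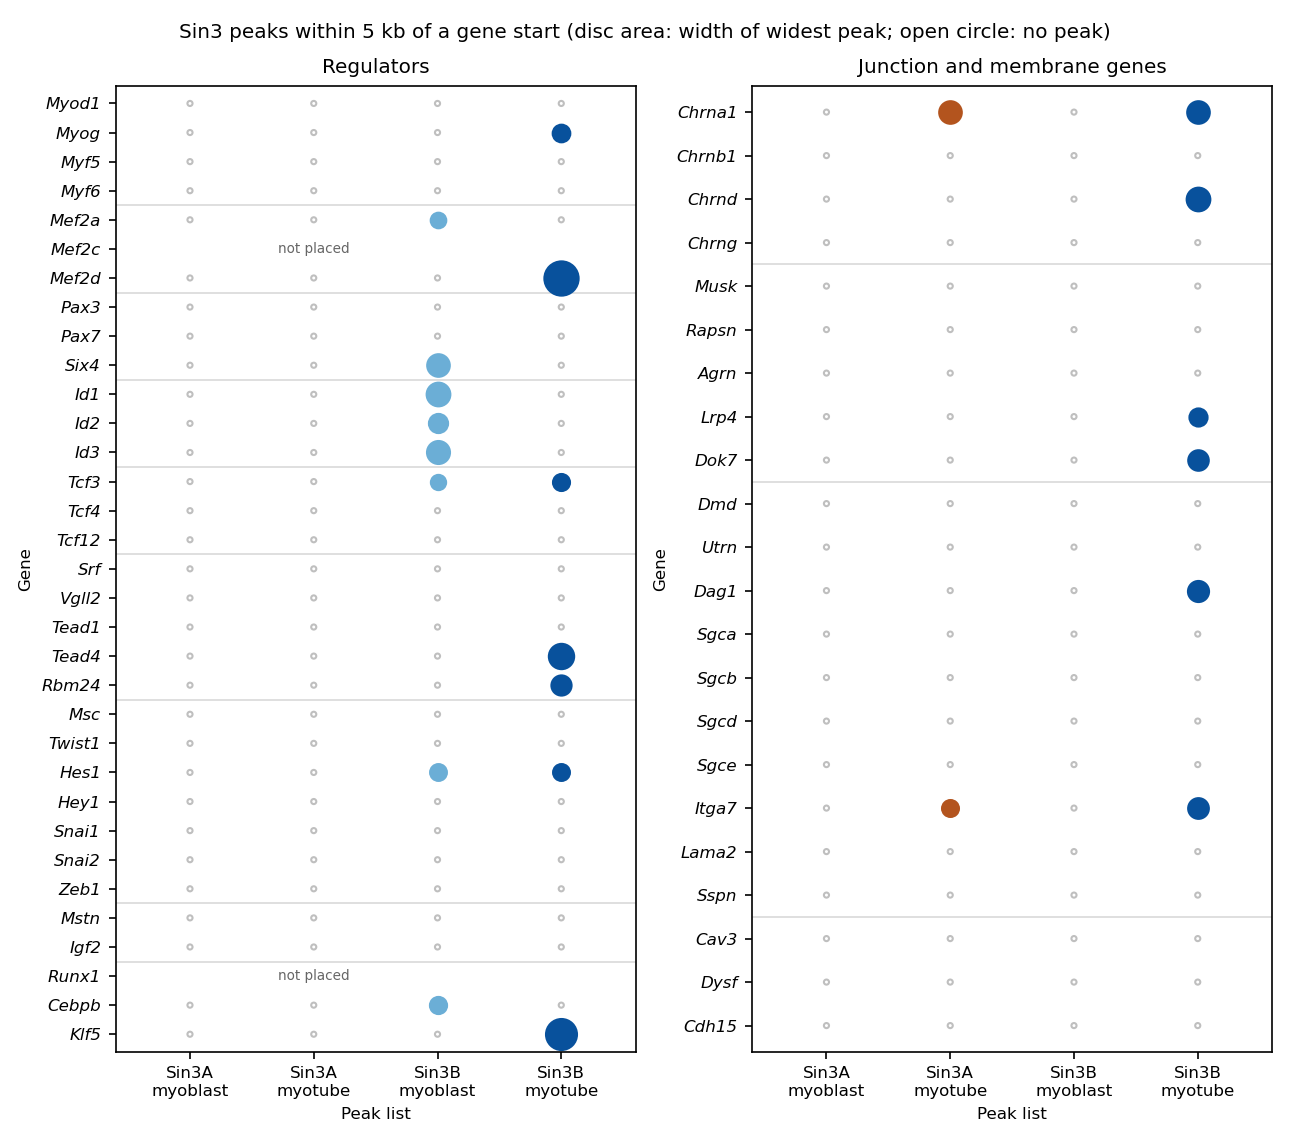
Peaks within 5 kb of a start for the 55 listed genes (rows, grouped by role) in the 4 peak lists (columns). Disc area is proportional to the width in bp of the widest such peak, and open circles mark placed genes without a peak. Id1, Id2 and Id3 carry discs in the Sin3B myoblast column only, and the junction and membrane genes carry discs in the myotube columns only. For Sin3B in myoblasts that is 0 of 22 placed genes (interval up to 15.4%), against 12.2% of all placed genes, a share inside that interval.

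Set against all genes, the shares in the single lists were close to the background. In the Sin3A myoblast list 0 of 53 genes had a peak (an exact 95% interval reaches 6.72%), against 2.22% of all placed genes. In the Sin3A myotube list 2 did (3.77%, 0.46 to 13.0%), against 4.13%. For Sin3B in myoblasts the count was 8 (15.1%, 6.75 to 27.6%), against 12.2%. For Sin3B in myotubes it was 13 (24.5%, 13.8 to 38.3%), against 18.6%. Each of these 4 background values lies inside the interval of the listed genes, so the number of bound genes per list is no result about them. Counted over any list, the share was 35.8% (23.1 to 50.2%), an interval that begins just above the background of 22.9%. The 18 genes with both ends counted had 2 windows each, which raises their share. Among the 35 placed genes with known start, 12 had a peak (34.3%, 19.1 to 52.2%). Over all placed genes with a known start it was 3815 of 16558, a share inside that interval. These Clopper-Pearson intervals cover counting error only.

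**Figure D2:**
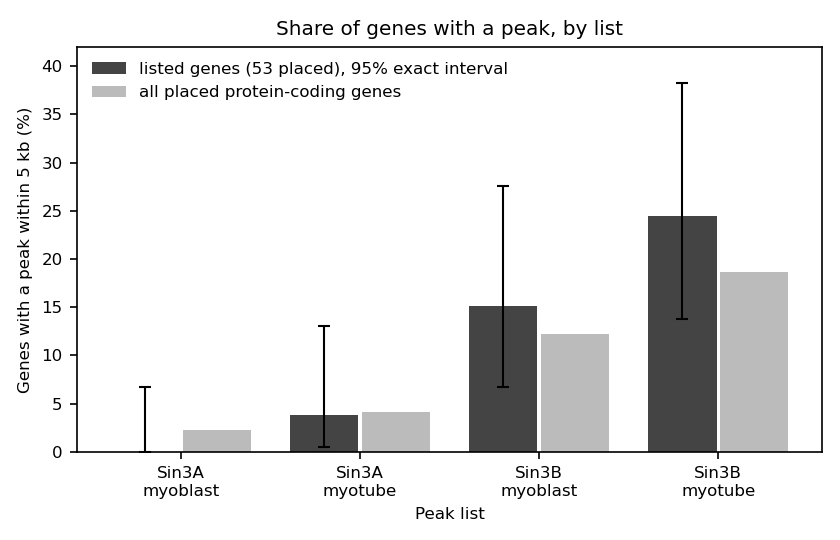
Percent of genes with a peak within 5 kb of a start in each list, for the 53 placed listed genes (dark bars, with 95% exact intervals) and for all 20678 placed protein-coding genes (light bars). The light bars, from 2.22% to 18.6%, lie within the intervals of the dark bars in all 4 lists.

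Sin3B peaks at these genes were mostly listed at 1 stage. Of the 8 listed genes with a Sin3B peak in myoblasts, 2 (25.0%) also had one in myotubes, whereas 1811 of the 2518 genes bound in myoblasts over the whole table did (71.9%). Seen from myotubes, 2 of 13 listed genes (15.4%) and 1811 of 3838 genes (47.2%) were also bound in myoblasts. Counted over the 53 genes, 6 had Sin3B in myoblasts only (11.3%, 4.27 to 23.0%), against 3.42% of all placed genes. In myotubes only it was 11 (20.8%, 10.8 to 34.1%), against 9.8%. At both stages it was 2 (3.77%, 0.46 to 13.0%), an interval that holds the background of 8.76%. Among the 35 placed genes with known start, 17.1% had Sin3B in myotubes only (6.56 to 33.6%, which holds 9.8%). In myoblasts only it was 14.3% of them (4.81 to 30.3%). The genes were chosen with results of these data known and each stage has 1 list, so this is a description without a test. With lists brought to equal length by keeping the 691 widest peaks, 3 genes had Sin3B in myoblasts only, 3 in myotubes only and 0 at both stages. At that setting 4.2% of all placed genes had Sin3B in myoblasts and 4.1% in myotubes, and the 3 listed genes per list are near these shares. Shares at 1 stage only were not computed over all genes there, so the stage pattern cannot be compared at equal length. All 6 genes of the first class were regulators, and the 11 of the second were 5 regulators and 6 junction or membrane genes. The lack of junction and membrane genes in the first class is no result about them. It stands at 0 of 22 placed genes, with an exact interval up to 15.4%, which holds the background of 3.42%. Of 38 placed other membrane and junction genes, not on the list, 4 had Sin3B in myoblasts only (10.5%).

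Sin3B was listed in myoblasts at Id1, Id2 and Id3, the Id inhibitors among the 55 genes, against 12.2% of all placed genes (3.42% in myoblasts only). Id4, the remaining family member and not among the 55, was placed and had no peak in any list. Id1, Id2 and Id3, which sequester E proteins, each had 1 Sin3B myoblast peak. At Id1 it was 777 bp wide, on chromosome 2 at 152562542 to 152563318, and its centre lay inside the gene, 480 bp from an end. At Id2 it was 508 bp wide, on chromosome 12 at 25780095 to 25780602, 744 bp downstream of the start, also within the gene. At Id3 it was 732 bp wide, on chromosome 4 at 135700181 to 135700912, 724 bp downstream. The Id1 and Id3 peaks were at least as wide as 86.0% and 81.9% of their list, and the Id2 peak as 52.2%. The Id2 peak was not among the 691 widest of its list. The nearest Sin3B myotube peaks lay 66.9 kb from Id1, 121 kb from Id2 and 28.8 kb from Id3, far outside the window. No Sin3A peak came closer than 28.6 kb to any of the 3, and that one, near Id3, was in the myotube list.

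Among the E proteins, the partners that Id proteins capture, Tcf3 (which encodes E12 and E47) was bound at both stages, and Tcf4 and Tcf12 in no list. The Tcf3 myoblast peak, on chromosome 10 at 79896413 to 79896733, lay 62 bp downstream of the start as placed and 172 bp upstream once the block was centred. Its myotube peak, at 79895944 to 79896344, lay 491 bp downstream of the start. These 2 peaks did not overlap and were 68 bp apart, with centres 429 bp from each other, so the position was not the same in the 2 lists.

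Of the 4 myogenic bHLH factors, only Myog had a peak. This share (25.0%, exact interval 0.631 to 80.6%) is close to the 22.9% of all placed genes with a peak in any list. The count is therefore no result about these factors. Myog encodes myogenin, which acts late in differentiation, and its Sin3B myotube peak was 430 bp wide, on chromosome 1 at 136186786 to 136187215. The centre lay 4 bp upstream of the start as placed, and 337 bp downstream once the block was centred, so the peak lay at the promoter within the error of placement. A noncoding gene, Myoparr, starts 239 bp from the same centre. The nearest Sin3B myoblast peak was 71.6 kb away and the nearest Sin3A peaks 228 kb (myoblasts) and 1159 kb (myotubes). Myod1, the factor that commits cells to the lineage, had no peak nearer than 417 kb. Myf5 and Myf6 shared a block of 4 peaks in which several shifts did equally well, so their lack of a peak carries no weight.

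The promoters of the regulators whose peaks lay nearest a start with known strand are shown as RefSeq gives them for GRCm38.p6, from 250 bases before the start to 50 from it, since these windows lay under or beside the peaks. Capitals mark E-boxes (CANNTG, which reads the same on both strands), the core sequence that myogenic factors with E proteins and many other bHLH factors recognise. The Myog window is chr1:134289754-134290053 on the plus strand, Tcf3 chr10:80433586-80433885 on the minus strand, Six4 chr12:73113196-73113495 on the minus strand and Id3 chr4:136143572-136143871 on the plus strand.
Myog: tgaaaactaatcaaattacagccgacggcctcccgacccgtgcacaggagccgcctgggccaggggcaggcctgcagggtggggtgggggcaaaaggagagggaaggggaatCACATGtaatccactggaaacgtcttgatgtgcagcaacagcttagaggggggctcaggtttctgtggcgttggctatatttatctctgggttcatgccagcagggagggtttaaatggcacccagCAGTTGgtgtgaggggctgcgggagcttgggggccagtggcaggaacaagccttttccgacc
Tcf3: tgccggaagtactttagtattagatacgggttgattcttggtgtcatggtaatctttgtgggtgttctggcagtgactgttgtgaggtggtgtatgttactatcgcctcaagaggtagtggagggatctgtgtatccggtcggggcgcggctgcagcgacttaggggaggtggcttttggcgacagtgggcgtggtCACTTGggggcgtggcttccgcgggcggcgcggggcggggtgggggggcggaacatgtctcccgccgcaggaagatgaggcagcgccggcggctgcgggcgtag
Six4: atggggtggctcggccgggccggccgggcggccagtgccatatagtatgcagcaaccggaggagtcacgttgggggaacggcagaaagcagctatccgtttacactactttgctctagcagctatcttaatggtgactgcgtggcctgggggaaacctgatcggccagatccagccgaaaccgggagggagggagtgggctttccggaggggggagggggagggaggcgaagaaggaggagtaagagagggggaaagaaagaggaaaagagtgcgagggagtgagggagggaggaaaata
Id3: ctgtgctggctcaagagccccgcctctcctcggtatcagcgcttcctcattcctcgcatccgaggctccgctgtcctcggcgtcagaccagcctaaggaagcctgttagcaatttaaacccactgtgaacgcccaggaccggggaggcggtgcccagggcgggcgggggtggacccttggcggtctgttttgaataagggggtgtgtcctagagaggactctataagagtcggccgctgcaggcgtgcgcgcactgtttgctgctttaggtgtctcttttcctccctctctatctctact
Myog held 2 E-boxes, beginning at bases -138 and -12 from the start, and Tcf3 held 1, at -54. The Six4 and Id3 windows held none. An E-box is common in such windows, being found in 68.8% of 16558 promoters of placed genes, and in 60.2% of those of genes with a peak in any list. The Id3 and Tcf3 windows had CpG ratios (observed over expected CpG) of 0.70 and 1.03, and that of Myog 0.37.

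The 2 placed MEF2 factors, which act with myogenic bHLH proteins on muscle promoters, each had a Sin3B peak at 1 stage only. In either Sin3B list that is 1 of 2 genes (exact interval 1.26 to 98.7%). The interval holds the background of 12.2% in myoblasts and 18.6% in myotubes, so the counts are no result about the family. Among the 691 widest peaks of each list the Mef2d peak stayed and the Mef2a peak did not. Mef2a had a Sin3B myoblast peak of 336 bp, on chromosome 7 at 74516882 to 74517217, 809 bp downstream of the start, with the nearest Sin3B myotube peak 578 kb away. Mef2d had a Sin3B myotube peak on chromosome 3 at 87946456 to 87948075, 893 bp downstream of the start, with the nearest Sin3B myoblast peak 60.3 kb away. At 1620 bp the Mef2d peak was the widest at any of the placed listed genes, and as wide as or wider than 99.5% of its list. Mef2c lay in no kept block.

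Six4, a homeodomain factor upstream of the myogenic genes, had 2 Sin3B myoblast peaks within the gene, of 706 and 348 bp, on chromosome 12 at 74213185 to 74213890 and at 74211500 to 74211847. They lay 708 and 2572 bp downstream of the start, and the nearest myotube peak of Sin3B was 66.9 kb away. Pax3 and Pax7, which mark muscle progenitors, had no peak in any list, and no Sin3B peak came nearer to either than 257 kb. Cebpb, a factor of satellite cells and adipocytes, had a Sin3B myoblast peak of 407 bp on chromosome 2 at 167515284 to 167515690. As placed, its centre lay 1572 bp beyond the start, just past the end of this gene of 1518 bp. Once the block was centred it lay 1080 bp beyond the start, within the gene's length, so which side of the end it lies on is uncertain. That peak lay nearer, at 272 bp, to the start of a noncoding gene, A530013C23Rik. It was the only peak at a listed gene with another gene's start closer.

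Klf5, Tead4 and Rbm24 were bound by Sin3B in myotubes only. Klf5, a zinc finger factor, had a Sin3B peak of 1328 bp on chromosome 14 at 99697811 to 99699138, 783 bp inside its lower end, in a block of 7 peaks. Tead4, which binds MCAT elements of muscle genes, had one of 886 bp on chromosome 6 at 128249642 to 128250527, 729 bp inside its upper end. Rbm24, an RNA-binding protein of muscle, had 2 peaks of 562 and 554 bp on chromosome 13 at 46514295 to 46514856 and 46515105 to 46515658, lying 1275 and 2081 bp downstream of the start. The nearest Sin3B myoblast peaks to these 3 genes were 198, 1287 and 251 kb away, respectively. Srf, Tead1 and Vgll2 had no peak within the window.

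Among repressors of myogenesis and mesenchymal factors, Hes1, a target and effector of Notch signalling, was the only bound gene of 7. This share (14.3%, exact interval 0.361 to 57.9%) is no result about the group, since 22.9% of all placed genes had a peak in any list. In myoblasts it had 2 Sin3B peaks, on chromosome 16 at 30066424 to 30066756 and 30067168 to 30067559, and in myotubes 1, at 30067206 to 30067599. The myotube peak overlapped the second myoblast peak by 354 bp, and their centres were 39 bp apart, unlike the separate peaks of Tcf3. All 3 lay inside the gene, within 1206 bp of its upper end. Msc, Twist1, Hey1, Snai1, Snai2 and Zeb1 had none. The block of Hey1, with 8 peaks, only just reached the share needed to be kept and was shifted by 4440000 bp, against 100000 bp for the next block, so the lack of a peak at Hey1 carries no weight. The secreted regulators Mstn (myostatin) and Igf2 had no peak within the window.

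Runx1, a runt-domain factor, was left unplaced because 18 of 39 peaks of its block (46.2%) lay within 1 kb of a start. A 5 Mb block around it reached 54.5% with the same shift of 0 kb, which also held for the neighbouring kept block. With that shift Runx1 had 9 peaks near its starts, more than any other listed gene, and was the only one with a Sin3A myoblast peak. Its 2 starts in the table are 128.7 kb apart, on the minus strand. All 4 Sin3B myoblast peaks (at 92693254 to 92693659, 92693825 to 92694218, 92695421 to 92696558 and 92696702 to 92697247 on chromosome 16) and the Sin3A myoblast peak (92695737 to 92696272) lay within 3873 bp of the downstream start. Of the 4 Sin3B myotube peaks, 1 lay there (92696211 to 92696609), and 3 lay at the upstream start (92823457 to 92824045, 92824734 to 92825016 and 92825129 to 92826159), where no myoblast peak was listed. These values stand outside the other counts.

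**Figure D3:**
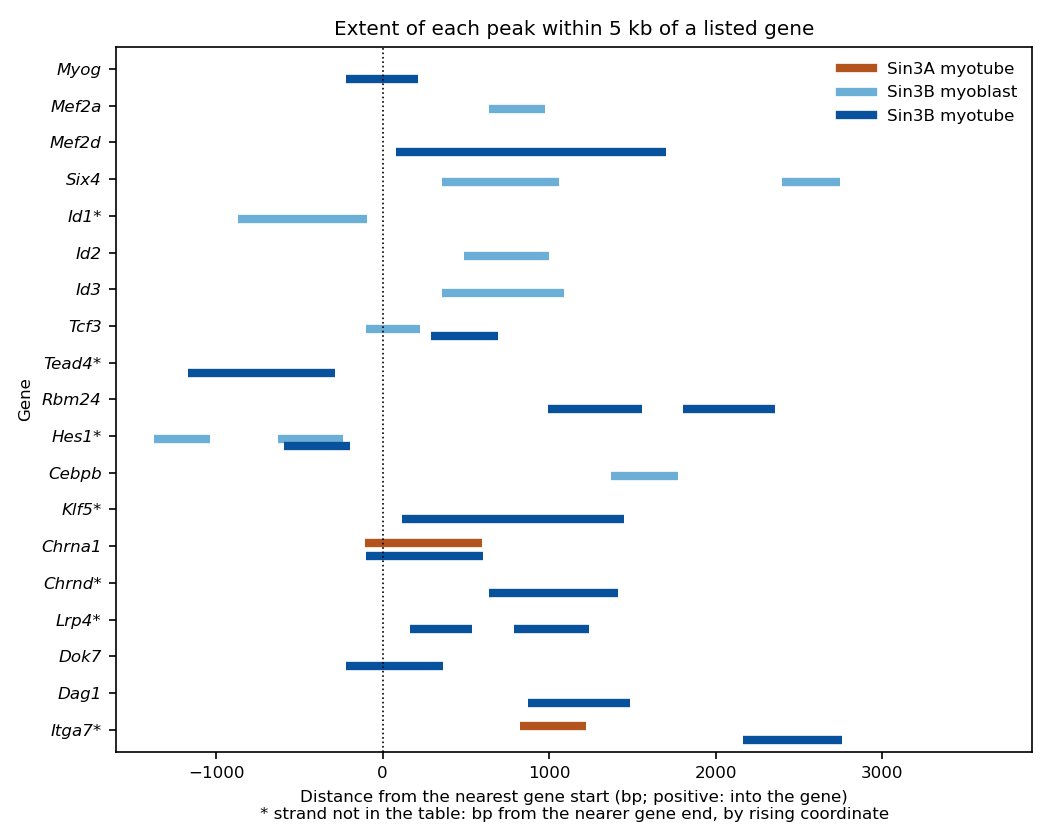
Extent of each peak within 5 kb of the 19 bound placed genes, in bp from the nearest start (positive is into the gene), coloured by list. Asterisks mark genes without strand in the table, measured from the nearer end by rising coordinate. Peaks left of the dotted line at Id1, Tead4 and Hes1 lie inside those genes, measured from the upper end, and the Sin3A and Sin3B myotube peaks of Chrna1 coincide.

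At the neuromuscular junction, 2 of the 4 listed acetylcholine receptor subunit genes had a Sin3B peak in myotubes, against 18.6% of all placed genes. The exact interval of 6.76 to 93.2% holds that background, so the count is no result about them. Chrne, the epsilon subunit and not among the 55, was placed and had no peak in any list. Chrna1, the alpha subunit, had a Sin3A and a Sin3B peak in myotubes, on chromosome 2. The Sin3A peak spanned 73417739 to 73418443 and the Sin3B peak 73417733 to 73418437. With the same width of 705 bp they overlapped by 699 bp, and their centres were 6 bp apart. They lay 247 and 253 bp downstream of the start. Among the 691 widest peaks of each list the Sin3A peak stayed and the Sin3B peak did not. The nearest myoblast peaks were 2123 kb away in both lists. Chrnd, the delta subunit, had a Sin3B myotube peak of 775 bp on chromosome 1 at 89087237 to 89088011, 1027 bp inside its lower end, in a block with 55.6% of peaks near a start. Chrnb1 and Chrng (beta and gamma subunits) had none within the window.

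Of the 5 genes that assemble receptor clusters, Lrp4 and Dok7 were bound in myotubes by Sin3B. The interval of this share (40.0%, exact 5.27 to 85.3%) holds the 18.6% of all placed genes, so the count is no result about them. Lrp4, the agrin receptor, had 2 peaks of 375 and 454 bp, on chromosome 2 at 91297620 to 91297994 and 91298244 to 91298697, 351 and 1014 bp inside its lower end. Dok7, an activator of MuSK, had a peak of 583 bp on chromosome 5 at 35399851 to 35400433, 70 bp downstream of a start, in a block with 52.4% of peaks near a start. The nearest Sin3B myoblast peaks lay 136 kb from Lrp4 and 518 kb from Dok7. Musk, Rapsn and Agrn had no peak within the window in any list.

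The Chrna1 and Dok7 promoters lay under these peaks, and are shown in the same way. The Chrna1 window is chr2:73580289-73580588 on the minus strand and that of Dok7 is chr5:35056822-35057121 on the plus strand.
Chrna1: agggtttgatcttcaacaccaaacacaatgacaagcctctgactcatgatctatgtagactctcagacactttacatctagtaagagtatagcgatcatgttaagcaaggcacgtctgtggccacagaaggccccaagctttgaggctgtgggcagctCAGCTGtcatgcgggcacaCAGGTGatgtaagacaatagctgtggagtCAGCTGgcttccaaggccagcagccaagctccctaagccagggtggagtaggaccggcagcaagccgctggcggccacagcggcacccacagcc
Dok7: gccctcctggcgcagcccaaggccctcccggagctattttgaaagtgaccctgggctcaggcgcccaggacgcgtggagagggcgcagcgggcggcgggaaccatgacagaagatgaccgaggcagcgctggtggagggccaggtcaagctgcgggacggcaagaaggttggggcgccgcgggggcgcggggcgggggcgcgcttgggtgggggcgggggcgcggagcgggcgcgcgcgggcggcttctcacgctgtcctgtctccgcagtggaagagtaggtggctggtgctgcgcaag
Chrna1 held 3 E-boxes, beginning at bases -92, -73 and -44 from the start, of which 2 read CAGCTG. That form was found in 15.2% of the 16558 promoters. Dok7 held none, and was rich in G and C (73.0%, against 54.7% for Chrna1). The CpG ratio was 0.31 for Chrna1 and 0.88 for this Dok7 window. Dok7 has another start in the table, whose promoter held 1 E-box, with 62.3% G and C and a CpG ratio of 0.38, and that one entered the shares and medians.

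Of 10 genes that link the cytoskeleton to laminin, 2 had a Sin3B peak in myotubes (exact 95% interval 2.52 to 55.6%), against 18.6% of all placed genes, so the count is no result about them. Dag1, which encodes dystroglycan, had a Sin3B myotube peak of 615 bp on chromosome 9 at 108165328 to 108165942, 1180 bp downstream of the start. Itga7, the laminin-binding integrin subunit of muscle, had a Sin3A and a Sin3B myotube peak. The Sin3A peak, on chromosome 10 at 128371245 to 128371641, lay 1022 bp inside the lower end of the gene. The Sin3B peak, at 128372586 to 128373178, lay 2461 bp inside it. Unlike those of Chrna1, these peaks did not overlap and left a gap of 944 bp. Dmd, Utrn, the 4 sarcoglycan genes, Sspn and Lama2 had no peak within the window, and neither had Cav3, Dysf and Cdh15, which serve caveolae, membrane repair and myoblast adhesion. The block of Dmd held 2 peaks, so its lack of a peak carries no weight.

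**Figure D4:**
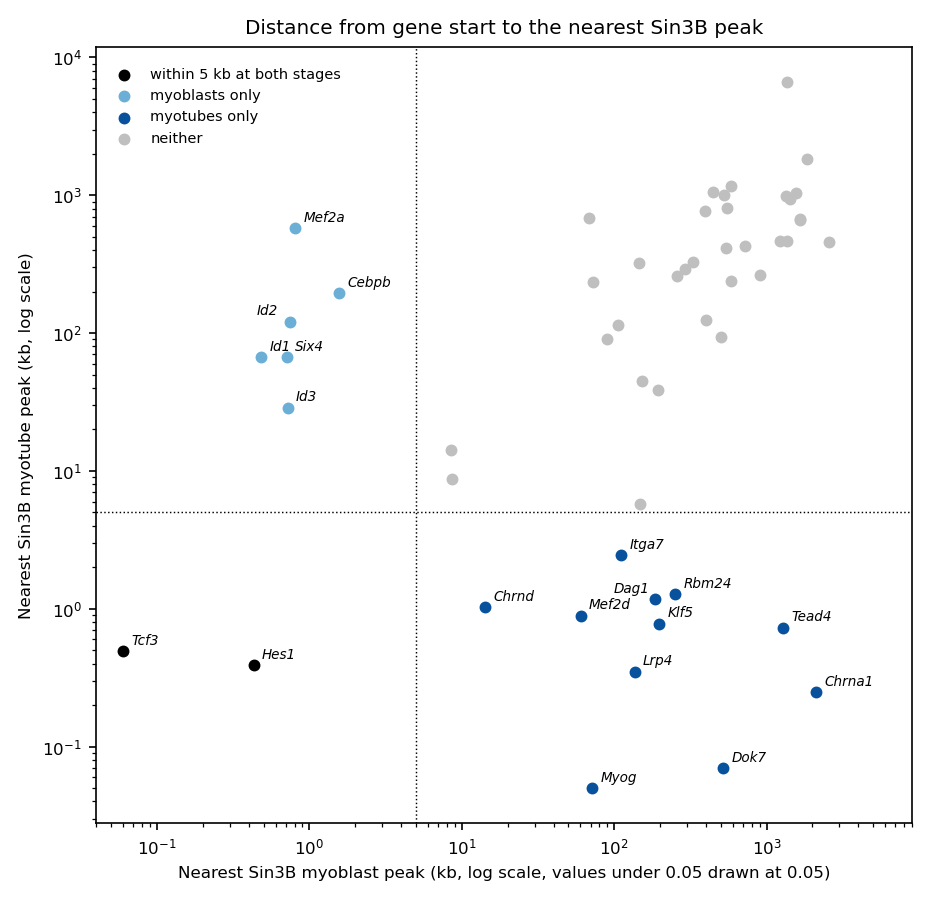
Distance in kb from the start of each placed listed gene to the nearest Sin3B peak in myoblasts (horizontal, log scale) and in myotubes (vertical, log scale), with dotted lines at 5 kb. The 17 genes bound at 1 stage only sit at least 14.2 kb from a Sin3B peak of the other stage, and Tcf3 and Hes1 sit within the window at both.

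Few genes lay close to the limit of 5 kb. The nearest peak of all 23 pairs of gene and list that were called lay within 2461 bp, and 17 of the 23 within 1 kb. Just outside, between 5 and 10 kb, were Utrn in both myotube lists (5.81 kb for Sin3A and 5.77 kb for Sin3B), Srf (6.78 kb) and Mstn (8.35 kb) with Sin3A in myoblasts, Chrng (8.46 kb) with Sin3B in myoblasts, and Rapsn with Sin3B at both stages (8.61 and 8.81 kb). Utrn encodes utrophin, the dystrophin homologue of the junction. Its peaks lay upstream of the start in the table but inside the RefSeq span of the gene. From the outer end of that span the Sin3A myotube peak (814 bp) was 2347 bp away, and Sin3B myotube peaks of 267 and 728 bp were 2382 and 1184 bp away. Measured in that way, Utrn would be a further gene with both proteins in myotubes.

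Most peaks at listed genes lay downstream of the start. Where strand was known, all 7 Sin3B myoblast peaks and 7 of 8 Sin3B myotube peaks lay downstream of the start, at medians of 744 and 692 bp. Over all placed protein-coding genes the medians were 48 and 136 bp, with 54.0% and 61.4% downstream. With so few peaks and the error of placement, these medians were not tested. Once the blocks were centred, the Tcf3 myoblast peak lay 172 bp upstream and the Myog peak 337 bp downstream. The counts by side thus depend on the placement, and Six4 and Rbm24 entered them with each of their peaks. Peak widths had medians of 399.5 bp (10 peaks) against 507 bp for Sin3B in myoblasts, and 583 bp (15 peaks) against 548 bp for Sin3B in myotubes. The promoters of the 12 bound listed genes in the promoter table had a median CpG ratio of 0.71, and those of the 23 without a peak 0.47. Over all genes these medians were 0.83 and 0.43.

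Other genes of the same pathways, which were listed but are not among the 55, are given for comparison. Of 43 other myogenic regulators, 5 had Sin3B in myoblasts and 10 in myotubes, 2 of these at both stages. Of 38 placed other membrane and junction genes, 7 had Sin3B in myoblasts and 11 in myotubes, 3 at both stages, with Sin3A at 1 in myoblasts and at 2 in myotubes. Sin3B in myotubes only came to 18.6% of these other regulators and 21.1% of these other membrane and junction genes, against 9.8% of all placed genes. In myoblasts only it came to 6.98% and 10.5%, against 3.42%. These shares resemble those of the listed genes (20.8% and 11.3%).

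Sin3A was listed at these genes only where Sin3B was, among the placed genes and with the 5 kb window. Both placed genes with Sin3A in myotubes also had Sin3B there, which is 100% of the Sin3A genes and 15.4% of the 13 Sin3B genes. As shares of the 53 genes, both proteins in myotubes came to 3.77%, against 3.59% of all genes, and Sin3A alone in myotubes to 0, against 0.542%. Over all placed genes, 743 of 855 Sin3A genes in myotubes (86.9%) had Sin3B, and these were 19.4% of the 3838 Sin3B genes. In myoblasts none of the 8 listed Sin3B genes had Sin3A, against 251 of 2518 (9.97%) over all genes. Both proteins in myoblasts thus stood at 0 of 53 against 1.21%, and Sin3A alone in myoblasts at 0 against 1.01%. By stage, Sin3A was listed in myotubes only at 2 genes (3.77%, against 3.38% of all genes), in myoblasts only at 0 (against 1.47%) and at both stages at 0 (against 0.759%). Sin3B without Sin3A was listed at 8 genes in myoblasts (15.1%, against 11.0%) and at 11 in myotubes (20.8%, against 15.0%). Each of these background values lies within the exact 95% interval of the listed genes, so the shares are no result about them. Because 1 antibody catalogue number is given for both proteins, antibody and protein cannot be told apart in these shares.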

How the data were processed

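The authors deposited 11 peak files with start and end of each interval in bp and no other value, per the labels from libraries amplified by 18 PCR cycles; the sources used here do not name aligner, caller, threshold, build or use of input. Files within a group were identical and were counted once. Samples were grouped by title.

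Blocks of 10 Mb were shifted by up to 8 Mb either way in steps of 1 kb (ties went to the smaller shift) onto starts of GRCm38.p6: RefSeq promoter rows, or both ends of protein-coding genes without one. A gene was placed if a start fell into a kept block. E-boxes and CpG ratios were read from RefSeq promoters, 1 per gene for shares. At most 6 promoters are printed, of genes with peaks in most lists, then with the nearest peak (this order was chosen after the values were seen). All bound genes are named; the rule for naming other genes (3 or more lists) gave a result that is not reported here. The members and lists were chosen with earlier results of these data known. Placing and calling were tested on simulated data. Scripts ran under Python 3.11.15 with matplotlib 3.10.9, pandas 2.3.3, scipy 1.17.1 and numpy 2.4.6. No test between conditions was possible. Alternatives changed the window, blocks, peaks and starts.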

Additional observations from a re-analysis of the deposited data

How the results depend on the processing

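Of the 23 pairs of gene and list, all stayed when any base of a peak counted, when peaks under 100 bp were left out, with 5 Mb blocks and without blocks with tied shifts. With a window of 1 kb, 17 stayed: Sin3A in myotubes fell to 1 gene, as did myotube-only Sin3A and genes with both proteins in myotubes, and myotube-only Sin3B to 7. At 2 kb, 22 stayed and both proteins in myotubes were at 1 gene. At 10 kb, 7 pairs were added and Sin3A in myoblasts, all myoblast-only, reached 2 genes. Blocks of 5 Mb, or the nearest kept shift for blocks under 50% (an alternative added after seeing the data), put Runx1 in 3 lists, so that Sin3A in myoblasts, myoblast-only Sin3A and both proteins in myoblasts were each at 1 gene. Blocks reaching 60% lost Chrnd and Dok7, and leaving out blocks with under 10 peaks (also added) lost Klf5.

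Even list lengths had the largest effect. With the 691 widest peaks of each list 8 pairs stayed, Sin3B in myoblasts fell to 3 genes and in myotubes to 3, of which 3 and 3 were at 1 stage only and 0 at both, and both proteins in myotubes to 0. Id1, Id3 and Six4, and Mef2d, Tead4 and Klf5 kept their Sin3B peaks. With genes of the promoter table only (added), 34 genes were placed and 14 pairs stayed, with Sin3A in myotubes at 1 gene, Sin3B in myotubes at 7, Sin3A myotube-only at 1, Sin3B at both stages at 1 and in myotubes only at 6, and both proteins in myotubes at 1. Adding the outer end of the gene span (added) called Utrn in both myotube lists. No paired analysis was possible because the files of a group are identical, which also leaves no replicate to drop. Depth is unknown, and calls rest on shifted positions.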
